A study of Rattus norvegicus with 24 samples.

Results

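The 9 genes described here, Ucp2, Ucp3, Pdk1, Pdk2, Pdk4, Angptl4, Acot1, Acot2 and Plin5, are responsive to peroxisome proliferator-activated receptors (PPARs) or act in the switch between fatty acids and glucose as the fuel of the heart. They were taken by symbol from tables of myocardial RNA, which list 10797 genes in all. Of the 9, 8 are listed in every table, and Acot1 is listed only at 10 and 20 weeks. The RNA came from the myocardium of Sprague-Dawley rats, in 24 libraries. In the MR groups the chest was opened on the left and a mitral leaflet was pierced, so that the valve leaked (mitral regurgitation, MR), a volume overload of the heart. In the Sham group the leaflet was left whole. There were 5 Sham and 4 MR libraries from 2 weeks after surgery, and 5 MR libraries from each of the later times, 10, 20 and 40 weeks, with replicates numbered within each group. Every Sham library is from 2 weeks, so for the later MR groups the effect of MR cannot be told apart from that of age or of other differences between the times. The labels give no chamber, sex, age or batch, and do not say that each library is a separate animal, so the p-values measure the spread between these libraries, which may be technical.

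PPARs are nuclear receptors that sense fatty acids. Paired with a retinoid X receptor they bind DNA at repeats of a short half-site, and in heart muscle they raise genes for the uptake, storage and oxidation of fatty acids. The heart normally draws most of its energy from fatty acids, and the pyruvate dehydrogenase kinases (Pdk genes) hold back the oxidation of glucose by switching off the enzyme complex that feeds pyruvate into the citric acid cycle.

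The members did not follow 1 course. Ucp3 was highest at 20 weeks and lower again at 40 weeks, whereas Ucp2, Pdk1, Acot2 and Pdk4 had their highest means at 40 weeks. Values are normalised read counts. Those given per library are on 1 common scale for all 24 libraries (each library rescaled by its median ratio to the other libraries), and log2 fold changes against Sham come from the deposited table of that time, with their SE. Fold changes are on the scale of log2(value + 1), which understates the change of low genes, and a gene passed at an adjusted p under 0.05. Because the tissue is bulk myocardium, fewer cells of a type and less RNA per cell cannot be told apart.

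**Figure D1:**
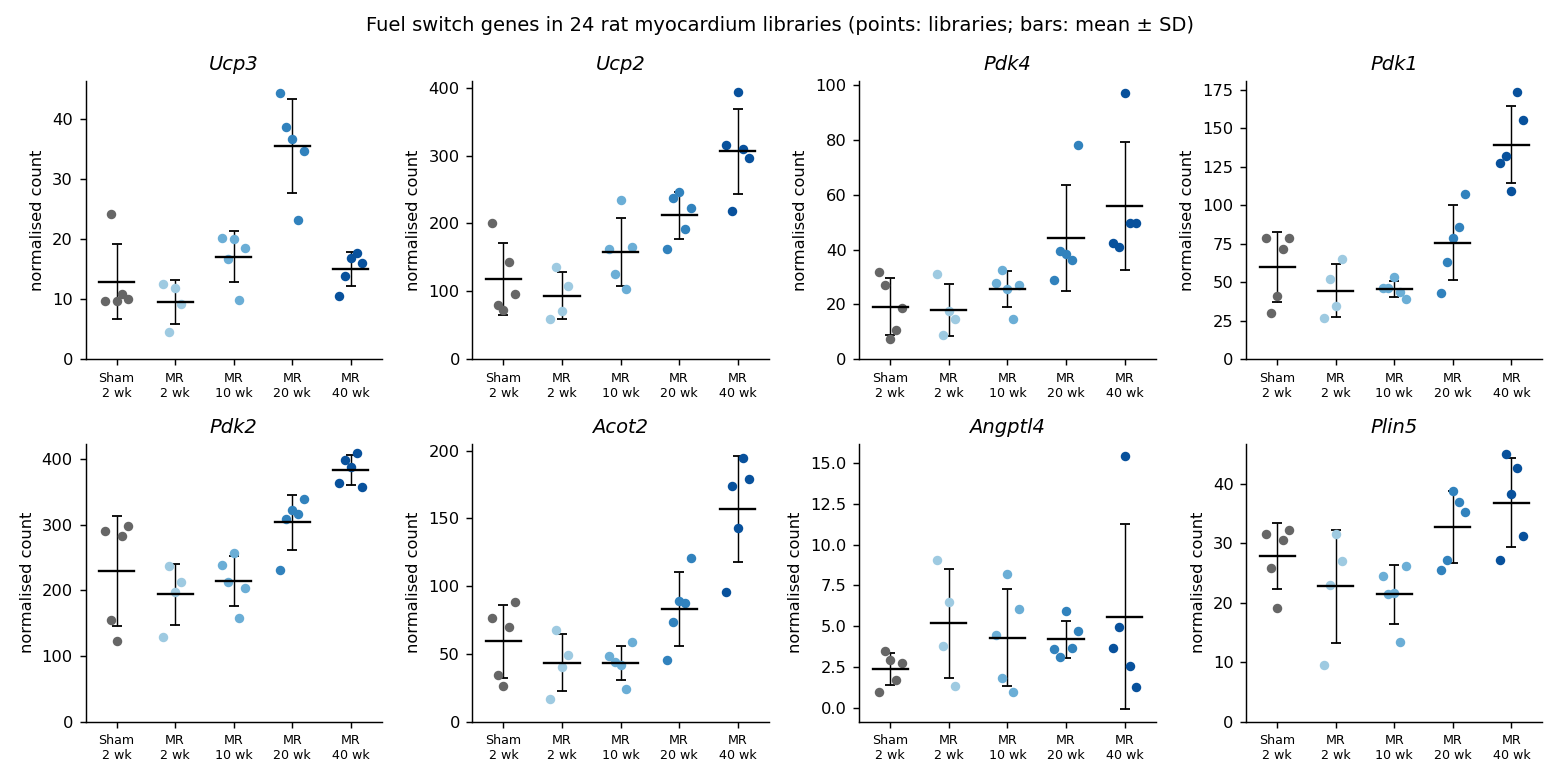
Normalised counts on the common scale (y axis, linear from 0 or just under it) of 8 members in each of 24 libraries, by group; points are libraries, the horizontal bar is the mean and the whisker the SD. The 5 libraries of MR at 20 weeks reach 23.1 to 44.3 for Ucp3 and those at 40 weeks 10.55 to 17.6, while the 40-week libraries are the highest group for Ucp2, Pdk1, Pdk2 and Acot2.

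Against Sham, 0 of the 8 tested members passed at 2 weeks, where 0 of 10173 genes passed with limma (0%), 0 with edgeR and 65 with DESeq2, and 5.47% had an unadjusted limma p under 0.05. At 10 weeks it was 0 of 8 members, beside 0.168% of all genes. At both times 0 of the 8 had an unadjusted limma p under 0.05 (12% of all genes at 10 weeks), and 0 passed with edgeR or DESeq2. At 20 weeks 1 of 8, Ucp3, passed and was higher, beside 0.0698% of all genes. At 40 weeks 4 of 8, Ucp2, Pdk1, Pdk4 and Acot2, passed and were higher, beside 47.3% of all genes in either direction (16.3% higher and 30.9% lower). The median log2 fold change of the 8 members was -0.43, 0.27, 0.60 and 0.87 at 2, 10, 20 and 40 weeks, beside -0.07, 0.06, 0.00 and -0.15 over all tested genes. At 40 weeks the median of all genes thus lay 0.15 below 0 on the deposited scale. After rescaling of that table it was -0.01, and the share of called genes that were higher went from 34.5% to 52.1%. There 5 of 8 members passed, beside 4587 of 10077 genes (2391 higher and 2196 lower). Fold changes above 0 were found for 1, 5, 8 and 8 of the 8 members at these times, beside 37.8%, 62.4%, 49.4% and 38.8% of all genes. In the deposited tables the libraries of MR lay apart from those of Sham, with no overlap, for 0 of 8 members at 2, 10 and 20 weeks and for 2 of 8, Pdk1 and Pdk4, at 40 weeks, beside 2.16%, 2.45%, 1.80% and 29.2% of all genes.

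**Figure D2:**
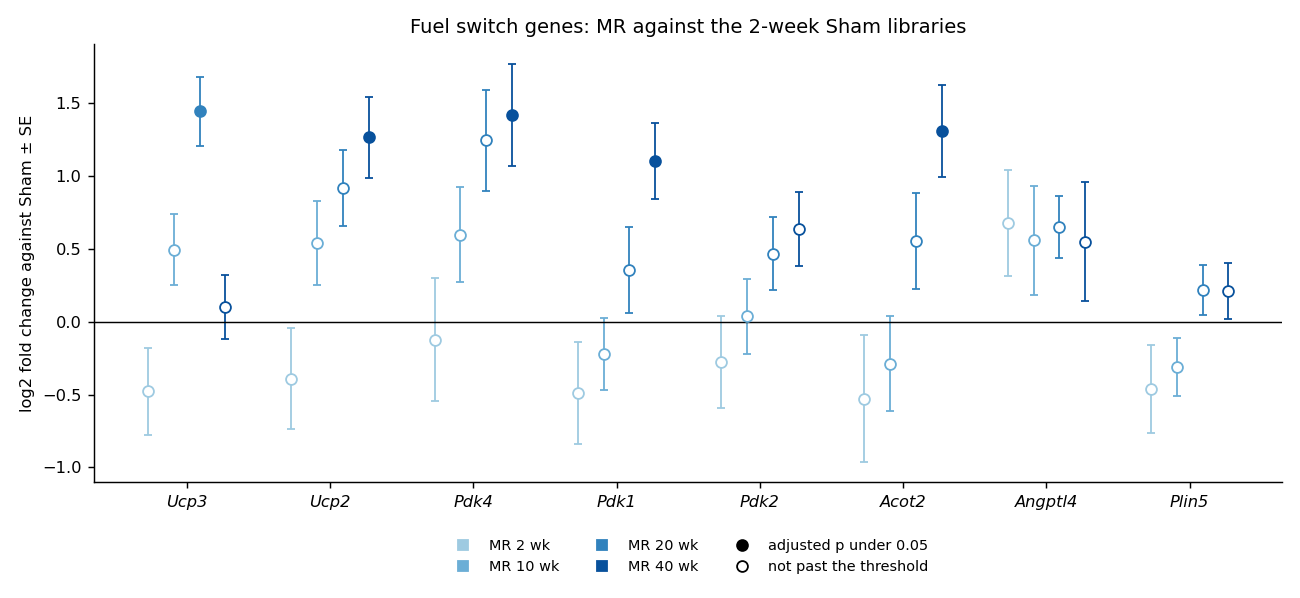
Log2 fold change against Sham with its SE (y axis) for 8 members at the 4 MR times; filled points passed at an adjusted p under 0.05. Only Ucp3 is filled at 20 weeks (1.44), and at 40 weeks Ucp2, Pdk4, Pdk1 and Acot2 are filled while Ucp3 is at 0.10.

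Ucp3 and Ucp2 code for carriers of the inner mitochondrial membrane, named uncoupling proteins after their relative in brown fat; Ucp3 is found mainly in muscle and heart, Ucp2 in many tissues. They lie side by side on the plus strand of chromosome 1 in the tables (build rn6), Ucp3 at chr1:165482912-165495897 and Ucp2 at chr1:165506375-165512745, with 10477 bases between them. The sequences around their starts are shown because the pair are neighbours whose RNA took different courses between 20 and 40 weeks, and that of Plin5 because it holds the same half-site. Each runs from 250 bases before the start of the gene to 50 after it, on the gene's strand (RefSeq, build GRCr8: Ucp3 at chr1:164227660-164227959, Ucp2 at chr1:164251123-164251422, both plus strand, and Plin5 at chr9:1033235-1033534, minus strand). The deposited tables, on rn6, put Plin5 on the plus strand, so its window rests on RefSeq's strand in GRCr8 alone. Capitals mark the half-site AGGTCA.
Ucp3: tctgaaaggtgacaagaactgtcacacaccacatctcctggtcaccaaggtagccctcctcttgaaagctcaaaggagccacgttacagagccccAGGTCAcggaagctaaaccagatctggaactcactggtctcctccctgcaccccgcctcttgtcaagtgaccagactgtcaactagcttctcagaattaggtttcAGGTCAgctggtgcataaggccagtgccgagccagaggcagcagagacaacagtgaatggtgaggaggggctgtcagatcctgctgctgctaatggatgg
Ucp2: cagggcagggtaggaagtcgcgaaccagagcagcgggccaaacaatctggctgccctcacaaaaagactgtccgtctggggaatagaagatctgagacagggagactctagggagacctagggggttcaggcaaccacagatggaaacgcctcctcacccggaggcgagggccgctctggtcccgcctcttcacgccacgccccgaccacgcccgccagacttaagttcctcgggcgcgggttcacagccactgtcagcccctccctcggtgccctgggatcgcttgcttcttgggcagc
Plin5: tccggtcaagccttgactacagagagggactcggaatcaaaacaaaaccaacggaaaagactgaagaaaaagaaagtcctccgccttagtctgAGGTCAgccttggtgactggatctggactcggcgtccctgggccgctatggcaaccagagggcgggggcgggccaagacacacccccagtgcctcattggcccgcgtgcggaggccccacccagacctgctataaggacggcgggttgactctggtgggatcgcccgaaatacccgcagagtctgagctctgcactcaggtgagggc

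All 9 members had an entry among the RefSeq promoters. Searched on both strands, AGGTCA was found in 2 of the 9, in Ucp3 at 155 and at 50 bases before the start and in Plin5 at 157 bases before it, and 16.2% of 33469 promoters of the same length hold it. The full repeat AGGTCANAGGTCA, which overlaps that half-site, was in 0 of 9, beside 0.0538% of promoters. The nearest stretch to it was in Ucp3, AGGTTTCAGGTCA, which starts 57 bases before the start and differs at 2 places, as few as in 3.77% of promoters. Plin5 came within 3 differences (as few in 24.9% of promoters) and the other 7 within 4 (80.3%). A match of letters is a description and not a site of binding, and no match speaks only of this window.

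Ucp3 stood at 9.73, 24.1, 9.67, 10.9 and 10.0 in Sham replicates 1 to 5. The MR libraries at 2 weeks gave 12.55, 4.45, 11.8 and 9.16, and those at 10 weeks 20.2, 16.7, 19.9, 9.84 and 18.6. At 20 weeks the values were 44.3, 38.7, 36.6, 23.1 and 34.7. Sham replicate 2 was the one Sham library near the MR libraries of 20 weeks and just above the lowest of them, so these groups overlap by that single library. At 40 weeks Ucp3 was back at 10.55, 13.9, 16.8, 17.6 and 15.9, within the range of Sham, whose top is replicate 2. The other Sham libraries ended at 10.9, and all 40-week values but the 10.55 of replicate 1 lay above that. The fold change against Sham was 1.44 ± 0.24 at 20 weeks (adjusted p = 0.0427). It was -0.48 ± 0.30, 0.49 ± 0.24 and 0.10 ± 0.22 at 2, 10 and 40 weeks (adjusted p = 0.840, 0.435 and 0.729). The call at 20 weeks rested on its margin: the adjusted p rose to between 0.0566 and 0.164 when MR replicate 1, 2 or 3 or any Sham library but replicate 2 was left out, to 0.0544 with a pseudocount of 4 and to 0.0800 with edgeR, while the fold change was between 1.26 and 1.46 in these.

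The differences between MR times set MR groups against each other, with a spread estimated over all 24 libraries, Sham included. Ucp3 was higher at 20 than at 2 weeks by 1.85 ± 0.27 (adjusted p = 0.000237), with no overlap, and fell by 1.18 on the log2 scale from 20 to 40 weeks (SE 0.25, adjusted p = 0.00081), again with no overlap. From 10 to 20 weeks the difference was 1.03 ± 0.25 with no overlap, but the adjusted p was 0.198. It passed with DESeq2 (adjusted p = 0.0407, 27 genes passing in all) and with limma library weights (adjusted p = 0.0349, 762 genes), and not with edgeR. From 2 to 10 weeks the difference was 0.83 ± 0.27 (adjusted p = 0.120). That step passed only with limma library weights (adjusted p = 0.00622), where 1185 genes passed in all. In order of their means the groups ran 20 weeks (35.5 ± 7.81), 10 weeks (17.04 ± 4.25), 40 weeks (14.96 ± 2.82), Sham (12.9 ± 6.29) and 2 weeks (9.49 ± 3.66), as mean ± SD. Neighbours after the first differed by less than 1 SD of the wider of the pair. Further apart in that order, 40 weeks was higher than 2 weeks (0.67 ± 0.27, adjusted p = 0.0444). That call was lost without MR replicate 2 or 4 at 2 weeks or without MR replicate 2, 3, 4 or 5 at 40 weeks (adjusted p 0.0593 to 0.230), and also with a pseudocount of 4, on the values as deposited, with edgeR and with DESeq2 (adjusted p 0.0513 to 0.116).

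Ucp2 took another course. It stood at 200.4, 79.8, 71.8, 143 and 96.3 in Sham and at 59.2, 136, 71.1 and 107 in MR at 2 weeks. At 10 weeks it was 162, 126, 235, 103 and 166, and at 20 weeks 163, 238, 246, 192 and 222. The 40-week libraries, at 315.5, 218, 393, 309 and 296, all lay above every Sham library on the common scale. In the deposited table of 40 weeks MR replicate 2 (192.5) lay below Sham replicate 1 (214), so there the groups overlap. The fold change against Sham was 1.26 ± 0.28 at 40 weeks (adjusted p = 0.0025), from a mean of 122 ± 61.2 in Sham to 275 ± 64.5 (SD, n = 5 each). At 2, 10 and 20 weeks it was -0.39 ± 0.35, 0.54 ± 0.29 and 0.92 ± 0.26 (adjusted p = 0.845, 0.480 and 0.271). Between MR times Ucp2 was higher at 20 than at 2 weeks by 1.24 ± 0.27 (adjusted p = 0.00816) and at 40 than at 2 weeks by 1.76 ± 0.27 (adjusted p = 4.85e-05), without overlap. The steps from 2 to 10 weeks (0.78 ± 0.27, adjusted p = 0.157) and from 20 to 40 weeks (0.52 ± 0.26, adjusted p = 0.112) did not pass on their own. In a fit of only the MR groups compared, without Sham, the latter passed (adjusted p = 0.0179).

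The ratio of the 2 neighbours sets the courses against each other within each library, a measure chosen after their values were seen. As log2(Ucp3/Ucp2) it was -1.88, -2.62, -2.75, -3.06 and -2.68 at 20 weeks and -4.90, -3.97, -4.55, -4.13 and -4.22 at 40 weeks. Every 40-week library was below every 20-week library. The means differed by -1.76 (exact permutation test, two-sided, p = 0.00794, the smallest that 5 against 5 libraries can give; 0.0397 adjusted over 5 comparisons). Sham spread widely, at -4.36, -1.73, -2.89, -3.71 and -3.27, with replicate 2 the highest. Against Sham the 40-week mean differed by -1.16 (exact permutation p = 0.0317, adjusted 0.0794) and the other times by -0.13, -0.01 and 0.60 at 2, 10 and 20 weeks (exact permutation p = 0.857, 0.984 and 0.246). These rested in part on Sham replicate 2: without it the difference was 0.96 at 20 weeks (exact permutation p = 0.0238, unadjusted) and -0.80 at 40 weeks (exact permutation p = 0.0635, unadjusted).

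**Figure D3:**
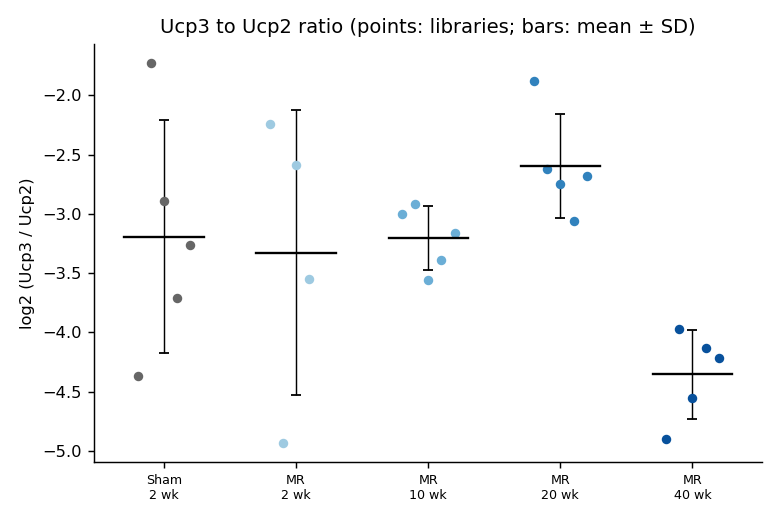
Log2 of Ucp3 over Ucp2 (y axis) in each of 24 libraries by group, with mean and SD. The libraries of MR at 20 weeks lie between -3.06 and -1.88 and those of MR at 40 weeks between -4.90 and -3.97, with no overlap, while the 5 Sham libraries span -4.36 to -1.73.

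Pdk4 codes for the pyruvate dehydrogenase kinase best known as a PPAR target, raised by fasting and by fatty acids in heart and muscle (minus strand, chr4:30546772-30556775, rn6). Its values were 32.0, 27.1, 7.50, 10.7 and 18.6 in Sham and 31.0, 8.82, 17.5 and 14.6 in MR at 2 weeks. At 10 weeks they were 27.6, 32.5, 25.8, 14.8 and 27.0. The Sham values were thus widely spread, and both 2-week groups covered nearly the same range. At 20 weeks Pdk4 was at 29.0, 39.4, 38.3, 36.0 and 78.2, and at 40 weeks at 42.4, 41.0, 97.1, 49.8 and 49.55. Every library of 40 weeks was above every Sham library, and 1 library stood far above its group at each of these times. The fold change against Sham was 1.42 ± 0.35 at 40 weeks (adjusted p = 0.00504) and 1.24 ± 0.35 at 20 weeks (adjusted p = 0.269). At 2 and 10 weeks it was -0.12 ± 0.42 and 0.60 ± 0.33 (adjusted p = 0.967 and 0.490). Within MR, Pdk4 was higher at 20 than at 2 weeks (1.29 ± 0.36, adjusted p = 0.0309) and at 40 than at 2 weeks (1.64 ± 0.36, adjusted p = 0.00105). The former call was lost without MR replicate 2, 3, 4 or 5 of 20 weeks or MR replicate 2, 3 or 4 of 2 weeks (adjusted p 0.05002 to 0.0865). From 20 to 40 weeks the difference was 0.34 ± 0.34 (adjusted p = 0.447).

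Pdk1, the kinase best known as a target of hypoxia-inducible factor (plus strand, chr3:58530870-58558030, rn6), was lowest at 2 and 10 weeks. Sham gave 78.4, 29.8, 40.9, 71.5 and 78.5, in which replicates 2 and 3 stood apart from the others. MR gave 26.6, 51.85, 34.4 and 64.6 at 2 weeks and 46.4, 46.4, 53.4, 43.4 and 39.1 at 10 weeks. At 20 weeks it was 42.8, 63.15, 78.6, 85.6 and 107, and at 40 weeks 127, 132, 109, 173 and 155. The 40-week libraries were all above every library of the other groups. Against Sham the fold change was 1.10 ± 0.26 at 40 weeks (adjusted p = 0.00393), from 61.5 ± 25.5 to 124 ± 20.3 (SD, n = 5 each), and -0.49 ± 0.35, -0.22 ± 0.25 and 0.36 ± 0.29 at 2, 10 and 20 weeks (adjusted p = 0.842, 0.771 and 0.760). Pdk1 rose from 20 to 40 weeks by 0.92 ± 0.26 (adjusted p = 0.00721) and from 2 to 40 weeks by 1.69 ± 0.27 (adjusted p = 6.88e-05). Between 2 and 20 weeks the difference was 0.77 ± 0.27 (adjusted p = 0.0745).

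Pdk2, the broadly expressed kinase of the same family (minus strand, chr10:82838270-82852759, rn6), had its narrowest spread at 40 weeks. Sham again fell in 2 sets, with 155 and 123 in replicates 2 and 3 against 291, 283 and 298 in the others. The MR libraries of 2 weeks stood at 129, 237, 197.5 and 212, those of 10 weeks at 239, 212.5, 256, 157 and 204, and those of 20 weeks at 231.5, 308, 322, 317 and 339. At 40 weeks they stood at 364, 399, 387, 409 and 357, above every other library on the common scale. In the deposited table of 40 weeks MR replicate 5 (293.3) lay below Sham replicates 1, 4 and 5 (310.2, 304.9 and 299.3), so there the groups overlap. The fold change against Sham at 40 weeks was 0.64 ± 0.25 and missed the threshold (adjusted p = 0.0514). It passed after rescaling of the table (0.80, adjusted p = 0.0126), with edgeR (0.72, adjusted p = 0.0210) and without Sham replicate 1, 4 or 5 (0.75 to 0.76, adjusted p 0.0283 to 0.0323). At 2, 10 and 20 weeks it was -0.28 ± 0.32, 0.04 ± 0.26 and 0.47 ± 0.25 (adjusted p = 0.875, 0.971 and 0.617). Within MR, Pdk2 was higher at 40 than at 2 weeks by 1.01 ± 0.22 (adjusted p = 0.000903). Between 20 and 40 weeks the groups did not overlap, and the difference was 0.35 ± 0.21 (adjusted p = 0.194, and 0.0292 in a fit of only these 2 groups). Between 2 and 20 weeks it was 0.67 ± 0.22 (adjusted p = 0.0577).

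Acot2 codes for a mitochondrial thioesterase that splits long-chain acyl-CoA into free fatty acid and coenzyme A (plus strand, chr6:107460668-107467479, rn6). Sham gave 76.3, 34.6, 26.7, 70.1 and 88.4, with replicates 2 and 3 lowest, as for Pdk1 and Pdk2. MR gave 17.03, 67.85, 40.1 and 49.4 at 2 weeks and 48.3, 43.8, 42.1, 23.9 and 58.7 at 10 weeks. Later values were 45.7, 73.5, 89.35, 87.7 and 121 at 20 weeks and 95.6, 174, 143, 194 and 179 at 40 weeks. On the common scale the lowest 40-week library lay just above the highest Sham library, and in the deposited table MR replicate 1 (88.2) lay just below Sham replicate 5 (88.9). Acot2 was 1.31 ± 0.32 above Sham at 40 weeks (adjusted p = 0.00438), from 61.0 ± 29.3 to 139 ± 32.3 (SD, n = 5 each). The fold change was -0.53 ± 0.44, -0.29 ± 0.32 and 0.55 ± 0.33 at 2, 10 and 20 weeks (adjusted p = 0.845, 0.771 and 0.665). It rose from 2 to 40 weeks by 1.94 ± 0.36 (adjusted p = 0.000234), without overlap, and from 20 to 40 weeks by 0.93 ± 0.34 (adjusted p = 0.0335). The latter call was lost without MR replicate 2, 4 or 5 of 40 weeks or MR replicate 1 or 2 of 20 weeks, and on the values as deposited (0.77, adjusted p = 0.0790). From 2 to 20 weeks the difference was 1.01 ± 0.36 (adjusted p = 0.0757).

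Acot1, the cytosolic relative of Acot2, lies 17608 bases further on (plus strand, chr6:107485088-107493081, rn6). The 2 are near-identical copies, so reads could be split between them. Values of both came to parts of a read (7.05 for Acot1 in Sham replicate 2 and 490.8 for Acot2 in Sham replicate 3, for example), so those of Acot1, and to the extent of such reads those of Acot2, are uncertain. In the table of 10 weeks it was at 0.624, 0.316, 0.432, 0.326 and 0.644 in Sham and at 0.678, 0.567, 0.759, 2.04 and 0.849 in MR. In the table of 20 weeks Sham gave 0.603, 0.307, 0.423, 0.319 and 0.620 and MR 0.859, 1.77, 1.19, 0.708 and 0.817. The 20-week libraries were all above every Sham library, and at 10 weeks 2 Sham libraries overlapped the MR range. Its mean was under the minimum of 1 that genes needed to enter the test. With no minimum the fold change was 0.39 ± 0.20 at 10 weeks and 0.49 ± 0.18 at 20 weeks (adjusted p = 0.461 and 0.386). Acot1 was not analysed here at 2 and 40 weeks.

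Angptl4 codes for a secreted inhibitor of lipoprotein lipase, the enzyme that frees fatty acids from circulating triglyceride (minus strand, chr7:18627814-18634044, rn6). Its counts were low, at 0.983, 3.51, 2.93, 1.73 and 2.74 in Sham and 9.07, 3.77, 6.50 and 1.33 in MR at 2 weeks. The later MR libraries gave 4.47, 1.80, 8.21, 0.980 and 6.07 (10 weeks), then 3.60, 3.10, 5.96, 3.64 and 4.70 (20 weeks), and last 3.68, 4.98, 15.4, 2.58 and 1.26 (40 weeks). Only at 20 weeks was the spread narrow, and there only Sham replicate 2 reached into the MR range. The fold change was 0.68 ± 0.37, 0.56 ± 0.38, 0.65 ± 0.22 and 0.55 ± 0.41 at 2, 10, 20 and 40 weeks, and none passed (adjusted p = 0.840, 0.593, 0.334 and 0.282).

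Plin5 coats lipid droplets and ties them to mitochondria in tissues that burn fat (chr9:10956056-10961783, rn6). On the common scale the lowest, median and highest values were 19.1, 30.6 and 32.3 in Sham. In MR they were 9.55, 24.9 and 31.5 (2 weeks), 13.3, 21.7 and 26.1 (10 weeks), 25.4, 35.1 and 38.8 (20 weeks), then 27.1, 38.3 and 44.9 (40 weeks). Each MR group overlapped Sham. Its fold change against Sham was -0.46 ± 0.30, -0.31 ± 0.20, 0.22 ± 0.17 and 0.21 ± 0.19 at 2, 10, 20 and 40 weeks (adjusted p = 0.840, 0.571, 0.752 and 0.379). Plin5 was higher at 40 than at 2 weeks (0.77 ± 0.25, adjusted p = 0.0152), a call lost without MR replicate 1 of 2 weeks (0.41, adjusted p = 0.117), whose value was the lowest of all, and on the values as deposited (0.60, adjusted p = 0.0569). From 2 to 20 and from 20 to 40 weeks it differed by 0.60 ± 0.25 and 0.16 ± 0.23 (adjusted p = 0.118 and 0.611).

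Among the MR times, 0 of 8 members passed from 2 to 10 weeks (1.37% of all genes), 3 of 8 from 2 to 20 weeks (8.81%), 0 of 8 from 10 to 20 weeks (0.0100%), 3 of 8 from 20 to 40 weeks (38.8%) and 7 of 8 from 2 to 40 weeks (45.7%). With an unadjusted limma p under 0.05 there were 2 from 2 to 10 weeks and 6 from 10 to 20 weeks (15.2% of all genes for each), with edgeR 0 and 0, and with DESeq2 0 and 1. The 3 from 2 to 20 weeks, Ucp3, Ucp2 and Pdk4, were higher, as were 4.01% of all genes. From 20 to 40 weeks Pdk1 and Acot2 rose, beside 21.3% of all genes, and Ucp3 fell, beside 17.6%. All but Angptl4 were higher at 40 than at 2 weeks, beside 24.3% of all genes. Libraries did not overlap for 0, 2, 1, 3 and 5 of 8 members in the 5 contrasts as listed, beside 5.16%, 10.4%, 3.06%, 22.9% and 32.1% of all genes. These contrasts share libraries with each other.

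Some members varied together among libraries of the same group. After the group means were removed, 8 of 28 pairs had a correlation with an adjusted p under 0.05 (Pearson, 24 libraries, 100000 permutations within groups), all positive. They join Ucp2, Pdk1, Pdk2, Acot2 and Plin5. The share of such pairs among all genes was not computed, so the count does not set the members apart from other genes. The closest were Pdk2 with Acot2 (r = 0.88, p = 5e-05, adjusted p = 0.0014; rho = 0.78, p = 0.00033, adjusted p = 0.00308; r = 0.83 without the 2 libraries farthest from the median of Pdk2). Acot2 with Plin5 followed (r = 0.81, p = 0.00013, adjusted p = 0.00182; rho = 0.68, p = 0.00131, adjusted p = 0.00917; r = 0.71 without 2 libraries). Pdk1 with Pdk2 (r = 0.79, rho = 0.82) and Pdk1 with Acot2 (r = 0.79, rho = 0.80) were alike, with adjusted p of 0.00459 and 0.00273 for r, and r of 0.75 and 0.76 without 2 libraries. Ucp2 was tied to this set through Pdk2 (r = 0.75, adjusted p = 0.00644), and its rho with Pdk1 and with Acot2 missed the threshold (adjusted p = 0.0767 for both). Ucp3 and Pdk4 stood outside: Ucp3 with Pdk4 gave r = 0.52 (p = 0.0296, adjusted p = 0.0752; rho = 0.50; r = 0.38 without 2 libraries) and Ucp3 with Ucp2 r = -0.20 (p = 0.464, adjusted p = 0.721; rho = -0.11). Sham replicates 2 and 3 and MR replicate 1 of 2 weeks were low for Pdk1, Pdk2 and Acot2 together, while Sham replicate 2 had the highest Ucp3 of its group and MR replicate 1 of 2 weeks the highest Pdk4, Ucp3 and Angptl4 of its own.

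**Figure D4:**
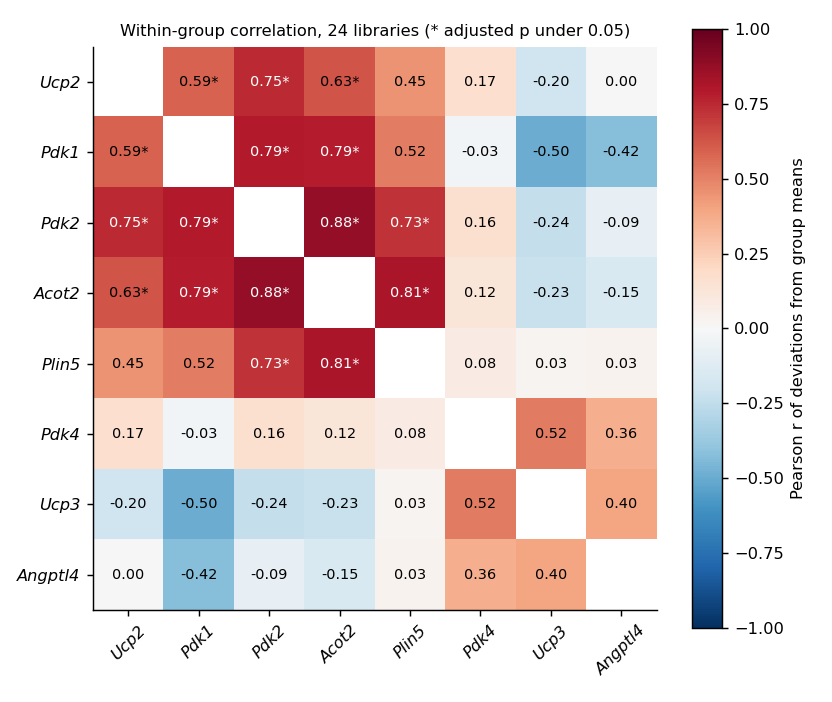
Pearson r between members across 24 libraries after removal of group means, with an asterisk where the adjusted p is under 0.05. Ucp2, Pdk1, Pdk2, Acot2 and Plin5 form a block of positive values up to 0.88, and Pdk4, Ucp3 and Angptl4 lie outside it, with Ucp3 and Pdk1 at -0.50.

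Marker genes varied with some of these libraries and groups, and their part in the results was not tested. Of 12 cardiomyocyte markers 11 were measured, and their summed value ran from 53150 to 63910 in Sham, 43730 to 57820 in MR at 2 weeks, 45310 to 59500 at 10 weeks, 53360 to 69570 at 20 weeks and 56630 to 77180 at 40 weeks. At 40 weeks against Sham the single cardiomyocyte markers went both ways, with 3 of 11 higher and 3 lower and a median of -0.17. Of all genes 16.3% were higher and 30.9% lower (2391 and 2196 of 10077 after rescaling). Ryr2 gave 1.12 ± 0.22 and Tnni3, cardiac troponin I, gave -1.35 ± 0.21 (adjusted p = 0.00116 and 0.000343). The sum was lowest of all in MR replicate 1 of 2 weeks, and lowest of Sham in replicates 2 and 3. All 12 endothelial markers were measured, with sums of 1105 to 1445 in Sham and 862.4 to 1182 at 40 weeks, and at 40 weeks 7 were lower and 1 higher (5 and 1 after rescaling), with a median of -0.61. All 10 fibroblast markers were measured. Their sum was 960.4 to 2847 in Sham, with replicate 3 the highest, 829.7 to 2756 at 2 weeks, 691.9 to 1296 at 10 weeks, 717 to 898 at 20 weeks and 792 to 1142 at 40 weeks. Macrophage markers (12 of 15) summed to 127.5 to 256 in Sham, 186 to 290.5 at 2 weeks, 182 to 319 at 10 weeks, 109.9 to 187 at 20 weeks and 91.1 to 173 at 40 weeks. White adipocyte markers were measured for only 3 of 11, without Adipoq and Plin1, and their sum, mostly Fabp4, was 355 to 592, 374 to 707, 581 to 789, 347 to 586 and 199.7 to 323 in the same order. Ucp1, the uncoupling protein of brown fat, was not analysed here. Depth was alike, with 7.69 to 12.1 M reads on listed genes in each library.

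PPARs and partner receptors, with coactivators and corepressors, were followed as a list of 19, of which 17 or 18 entered each test. The list thus pools activators and repressors, and their action on the members was not tested. None passed against Sham at 2, 10 or 20 weeks with limma, edgeR or DESeq2, and 2, 3 and 0 had an unadjusted limma p under 0.05. At 40 weeks 16.3% of all genes were higher and 30.9% lower (2391 and 2196 of 10077 after rescaling). Of the list 11 of 18 were higher and 1 lower (13 and 0 after rescaling), with a median of 0.64 beside -0.15 for all genes. The 3 with the smallest p were Esrrg, an oestrogen-related receptor of energy metabolism, at 1.93 ± 0.23 (2.73 ± 1.09 in Sham, 13.3 ± 4.20 in MR; adjusted p = 0.000137), Lpin1, a coactivator and phosphatase of lipid synthesis, at 1.66 ± 0.26 (adjusted p = 0.000348), and Ncoa2, a coactivator, at 1.35 ± 0.22 (adjusted p = 0.000464). Ppara, the main PPAR of fatty acid oxidation, is singled out here after its values were seen. It was at 3.70 ± 1.35 in Sham and 10.4 ± 4.77 at 40 weeks (1.22 ± 0.27, adjusted p = 0.00242, groups overlapping), and at 0.37 ± 0.21, -0.08 ± 0.21 and 0.12 ± 0.20 at the earlier times, none of which passed.

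Other PPAR targets of fatty acid use (35 of 37 tested) were below 0 in 35 of 35 cases at 2 weeks and above 0 in 32 of 35 at 20 weeks (37.8% and 49.4% of all genes were above 0), and none passed at 2, 10 or 20 weeks with limma, edgeR or DESeq2 (4, 2 and 6 with an unadjusted limma p under 0.05). After rescaling 1 of 35 was above 0 at 2 weeks and 32 of 35 at 20 weeks. Some other lists moved the same way. Of 11 cardiomyocyte markers 0 were above 0 at 2 weeks and 8 at 20 weeks, and of 11 pyruvate dehydrogenase genes 2 and 10. Macrophage markers went the other way, from 11 of 12 to 2 of 12. Between 2 and 20 weeks of MR all 35 PPAR targets were above 0 (49.0% of all genes), as were 10 of 11 cardiomyocyte markers. The median of the PPAR targets was 0.65, and 10 of them passed and were higher, beside 4.01% of all genes. Cpt1b, which loads fatty acids for entry into mitochondria, rose by 0.65 ± 0.12 (adjusted p = 0.00296) and Cd36, a fatty acid transporter, by 0.71 ± 0.17 (adjusted p = 0.0117). At 40 weeks against Sham the list divided, with 7 of 35 higher and 6 lower (13 and 4 after rescaling) and a median of 0.18. Of all genes 16.3% were higher and 30.9% lower (2391 and 2196 of 10077 after rescaling). Lpl, lipoprotein lipase, was higher by 1.43 ± 0.26 (445 ± 168 to 1142 ± 212, adjusted p = 0.00071), and Etfb, an electron carrier of mitochondrial oxidation, fell by 1.20 on the log2 scale (SE 0.17, adjusted p = 0.000253).

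The pyruvate dehydrogenase complex that the Pdk members act on, with its phosphatases and the pyruvate carriers, had 4 of 11 genes higher and none lower at 40 weeks (7 and 0 after rescaling), with a median of 0.64. Of all genes 16.3% were higher and 30.9% lower (2391 and 2196 of 10077 after rescaling). Among the 4 were Dlat, a subunit of the complex (1.32 ± 0.28, adjusted p = 0.00196), and on the phosphatase side Pdpr, its regulatory subunit (1.78 ± 0.31, adjusted p = 0.000593), and Pdp1, its catalytic subunit (0.69 ± 0.24, adjusted p = 0.0293). RNA of kinases and of the opposing phosphatase were thus both higher at 40 weeks. None of the 11 passed at 2, 10 or 20 weeks with limma, edgeR or DESeq2 (0, 0 and 1 with an unadjusted limma p under 0.05). Of 7 other acyl-CoA thioesterases tested at 40 weeks none was higher, while Acot13 (-0.73 ± 0.15, adjusted p = 0.00173) and Acot8 (-0.59 ± 0.14, adjusted p = 0.0035) were lower, a share near the 30.9% of all genes that were lower.

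Of the genes that handle lipoprotein lipase, the target of Angptl4, 4 of 5 were higher and 1 lower at 40 weeks, beside 16.3% and 30.9% of all genes. Besides Lpl, Vldlr, a lipoprotein receptor, was higher (1.10 ± 0.23, adjusted p = 0.0017), and Gpihbp1, which anchors the lipase on capillary endothelium, fell by 1.54 on the log2 scale (45.6 ± 17.98 to 14.2 ± 1.75, adjusted p = 0.00025). Gpihbp1 is also one of the 12 endothelial markers, of which 7 were lower at 40 weeks, Egfl7 (-1.42 ± 0.20) and Emcn (-1.06 ± 0.19) among them (adjusted p = 0.000236 and 0.000799). Their part in its fall was not tested. Lipid droplet and lipolysis genes, to which Plin5 belongs by function, were higher in 5 and lower in 1 of 14, again beside 16.3% and 30.9% of all genes. After rescaling 8 were higher and 1 lower, beside 2391 and 2196 of 10077 genes. Gpam, of triglyceride synthesis, was higher by 2.05 ± 0.23 (adjusted p = 0.00013), Abhd5, the activator of triglyceride lipase, by 1.04 ± 0.22 (adjusted p = 0.00188), and Dgat1, of triglyceride synthesis, was lower (-0.54 ± 0.12, adjusted p = 0.00257).

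Regulators other than PPARs act on some members too. Their targets are to be read against the 16.3% of all genes that were higher and the 30.9% that were lower at 40 weeks. At that time 7 of 17 genes listed as hypoxia-inducible factor targets were higher and 2 lower (Hk2 2.34 ± 0.35, adjusted p = 0.00027). The 7 include Epas1, which itself codes for such a factor (1.29 ± 0.21, adjusted p = 0.000458). Of 14 FOXO-responsive genes 6 were higher and 1 lower (Fbxo32 2.71 ± 0.23, adjusted p = 7.74e-05, and Foxo3 1.68 ± 0.19, adjusted p = 0.00013). Of 17 glucocorticoid-responsive genes 4 were higher and 3 lower (Zbtb16 2.30 ± 0.37, adjusted p = 0.000434). Circadian clock genes, whose RNA follows the hour of the day, were 3 higher and 3 lower of 15 (Dbp -1.37 ± 0.31, adjusted p = 0.00277). At 10 weeks the only genes of these 10 lists to pass with limma were Per2 (1.39 ± 0.20, adjusted p = 0.0192) and Tef (0.86 ± 0.16, adjusted p = 0.0491), both of the clock list. After rescaling Tef no longer passed (0.78, adjusted p = 0.0756). The hour of sampling is not given in the labels.

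**Figure D5:**
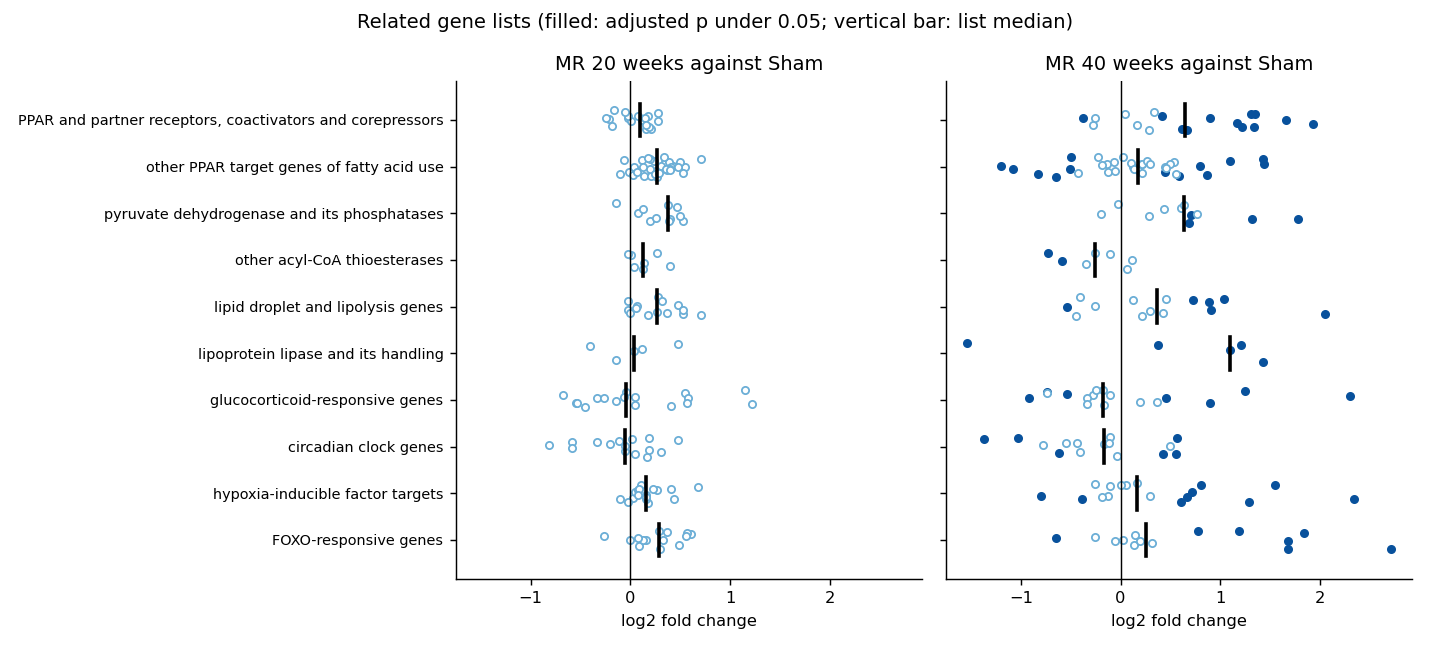
Log2 fold change against Sham (x axis) of each tested gene in 10 related lists at 20 weeks (left) and 40 weeks (right); filled points passed at an adjusted p under 0.05 and the vertical bar is the median of the list. No listed gene is filled at 20 weeks. At 40 weeks the list of receptors, coactivators and corepressors has its median at 0.64, with 11 genes higher and 1 lower, beside 16.3% and 30.9% of all genes.

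Likeness to each member was taken over the 24 libraries as the Pearson r of log2 values with 9983 genes. For the genes named, locus identifiers and the other members were left out. The most alike were Wdr45, Mavs and Tmed4 for Ucp3 (r = 0.79, 0.78 and 0.77) and Snurf and Napa for Ucp2 (r = 0.94 and 0.92). For Pdk4 they were Sts, Lrrc2 and Fxr2 (r = 0.87, 0.79 and 0.77), for Pdk1 Micu2, Timm29 and Aldh9a1 (r = 0.97 each), and for Pdk2 Lmod2, Hibadh and Coa5 (r = 0.97, 0.96 and 0.96). Acot2 was most like Atp2a2, Hspa9 and Pygm (r = 0.98 each), Plin5 like Pfkm, Aqp7 and Ech1 (r = 0.94, 0.93 and 0.93), and Angptl4 like Myd88, Plek and Acp1 (r = 0.67, 0.66 and 0.66). Likeness to other members was of the same order for some: Acot2 and Pdk2 had r = 0.94, with 77 genes closer to Acot2 than Pdk2 was, while the member most like Ucp3 was Pdk4 at r = 0.59, with 65 genes closer. The libraries share their groups, scale and depth in these values.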

How the data were processed

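Myocardial RNA of 24 libraries was sequenced. The deposited values are 4 tables of normalised gene counts (unit signal), each with 1 MR time beside the same 5 Sham libraries. Per the submitters' processing notes, Partek and the build rn6 were used. For the aligner, annotation, counting, strand setting and normalisation the sources used here give nothing, so a gene and an overlapping or antisense partner cannot be told apart. The deposited signal of a library is a whole number of reads times 1 factor: 97.4% to 98.0% of values up to 200 reads were within 0.1 read of a whole number.

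The test was limma 3.58.1 (R 4.3.3; trend, two-sided) on the log2 of the value plus 1, for genes with a mean of at least 1, with Benjamini-Hochberg adjustment over all genes. MR times were compared in 1 fit of all 24 libraries after median-ratio rescaling (9984 genes). Alternatives were other pseudocounts (0.25, 4) and filters, rescaling, library weights, edgeR 4.0.16 and DESeq2 1.42.0 on the recovered reads, a replicate block and leaving out each library. Simulated data were used to check only some of these fits, and no result of that check is given here. It therefore does not show how each fit performs at the spread of these libraries. Depth was 7.69 to 12.1 M reads. The members and gene lists were chosen with earlier results of these data known. Beside the members, the text names up to 3 genes per list and comparison, those of smallest p that passed, and up to 3 genes most like each member; some items that the rule names are not reported here. Sequences are RefSeq's (GRCr8), and starts in the tables are printed as given.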

Additional observations from a re-analysis of the deposited data

Results flagged for a closer look

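In 6 of 44 groups of a member's values 1 library stood far from the rest, by the gap to its neighbour as a share of the group's range (Dixon's 95% limit). That limit is set for about 1 in 20 groups of independent, normally spread values. The values here were taken without logs and the groups share libraries, so 6 of 44 cannot be set against that rate. Sham replicate 2 was the high library for Ucp3 at 24.1. For Pdk2 the low library was MR replicate 1 of 20 weeks at 231.5. Pdk4 had a high library at both late times, MR replicate 5 of 20 weeks at 78.2 and MR replicate 3 of 40 weeks at 97.1, and the latter library was also the high one for Angptl4 at 15.4. Acot1 was highest in MR replicate 4 of 10 weeks, at 2.04 in the table of that time.

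For 7 members the MR groups differed between times, by the test of the difference itself (limma, adjusted p under 0.05). From 2 to 20 weeks, where 8.81% of all genes passed, the log2 difference was 1.29 for Pdk4, 1.24 for Ucp2 and 1.85 for Ucp3. From 20 to 40 weeks (38.8% of all genes) it was 0.93 for Acot2, 0.92 for Pdk1 and -1.18 for Ucp3. From 2 to 40 weeks (45.7% of all genes) it was 1.94 for Acot2, 1.69 for Pdk1, 1.01 for Pdk2, 1.64 for Pdk4, 0.77 for Plin5, 1.76 for Ucp2 and 0.67 for Ucp3. Some of these calls were lost under alternatives given above. They are Pdk4 from 2 to 20 weeks, Acot2 from 20 to 40 weeks, and Plin5 and Ucp3 from 2 to 40 weeks.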

How the results depend on the processing

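Of 1069 alternative values of single members and of the Ucp3 to Ucp2 ratio, 991 kept their direction and their side of the threshold, 37 went from under to over the threshold of 0.05, 22 from over to under it and 19 changed direction. The ratio was judged here by its unadjusted p, and at 40 weeks against Sham its adjusted p did not pass in the first place. The cause of these changes was not tested. At 20 weeks against Sham the 1 member that passed became 0 with a pseudocount of 4 and with edgeR, and 0 to 1 without 1 library. Of all genes 4 of 10025, 8 of 10275 and 2 to 14 passed in these fits. From 2 to 10 weeks of MR the count of 0 became 2 with library weights, where 1185 of 9984 genes passed. From 2 to 20 weeks the count of 3 became 5 with DESeq2 (1224 of 10129 genes) and ran from 2 to 6 without 1 library (394 to 1194 genes). From 10 to 20 weeks 0 became 1 with DESeq2 (27 of 10129 genes) and 5 with library weights (762 of 9984 genes). From 20 to 40 weeks 3 became 5 in a fit of only the MR groups compared, where 4077 of 9878 genes passed. Between 2 and 40 weeks 7 became 5 to 7 over the alternatives run, where 3480 of 9982 to 4760 of 9984 genes passed. At 40 weeks against Sham the count was 4 or 5 under each alternative run. The share of all genes there ran from 4035 of 10105 to 3648 of 7340. Directions that changed were those of small differences. Pdk4 at 2 weeks went from -0.12 to between -0.4205 and 0.14 without 1 library, and Pdk2 at 10 weeks from 0.04 to -0.0422 after rescaling, -0.10 with edgeR, -0.11 with DESeq2, -0.0776 with library weights and -0.0326 in the fit of all libraries, and to between -0.19 and 0.16 without 1 library. The ratio at 2 weeks ran from -0.50 to 0.40 and at 10 weeks from -0.31 to 0.35 without 1 library, at 20 weeks from 0.30 to 0.96 and at 40 weeks from -1.45 to -0.80.

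With the replicate block on the numbers in the titles, for the 2-week groups that share them, 0 members and 0 genes passed, and Pdk4 was at 0.0331. That fit also drops Sham replicate 2, which has no partner, and leaving out that library alone gives Pdk4 the same 0.0331. Samples of the same number correlated at 0.018, -0.285, -0.004 and 0.241, and none matched its own number best, so the numbers were not taken as pairs. Counts over all genes moved more: 0 to 65 at 2 weeks, 3 to 85 (17 as reported) at 10 weeks and 4 to 93 (7 as reported) at 20 weeks against Sham, and between MR times 45 to 1185 (137 as reported) from 2 to 10 weeks, 435 to 1711 (880 as reported) from 2 to 20 weeks and 1 to 762 (1 as reported) from 10 to 20 weeks, leaving aside fits without 1 library. On the recovered reads edgeR called 0, 5, 8 and 4621 genes and DESeq2 65, 85, 93 and 4912 at 2, 10, 20 and 40 weeks against Sham, beside 0, 17, 7 and 4772 with limma.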
